A study of Spodoptera frugiperda with 3 samples.

Results

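The comparison described here set larvae of the fall armyworm, Spodoptera frugiperda, held at 40 °C (T40) against larvae held at 4 °C (T4). Its members were all unigenes in the deposited table for these 2 libraries, 18896 of the 30327 unigenes listed in at least 1 of the study's 3 pairwise tables. A unigene is 1 non-redundant contig of a de novo transcriptome assembly, here named by its contig, such as c180345_g2_i1. The larvae were wild type and came as whole bodies. The labels and the study's description of the temperature treatment give the fourth instar. Its description of RNA extraction gives the fifth, and which one was sequenced is not settled here. They were kept for 16 h at 40 °C or 4 °C, while a 25 °C group (T25) served as the study's control. Each temperature was sequenced as 1 library from 5 pooled larvae, so no value has a replicate. Larval differences, library differences and temperature cannot be told apart, and no test between temperatures was made.

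The table held only unigenes past a P value and fold change limit set by the authors for this file. To judge by the differences listed, that limit was looser than the one given in the study's methods for differentially expressed genes. A gene that is absent from it may have changed little, been too scarce or had 0 reads in a library. Such genes are not counted below. No listed unigene was at 0 reads in either library, and the smallest difference was 2.35-fold upward and 2.36-fold downward. Values below are reads per 1000000 (RPM) of the effective library size, which was 38643842 reads in T40, 36483914 in T4 and 28015943 in T25. Values given as reads are not scaled, and those of T25 come from the smallest library. Folds are ratios of RPM, each with a 95% exact (Clopper-Pearson) interval that covers counting error only. In whole bodies, fewer cells of a type and less RNA per cell cannot be told apart.

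In insects, heat and cold both disturb protein folding, membranes and ion balance. Heat shock proteins are molecular chaperones: Hsp70 and Hsp90 proteins and the ring-shaped chaperonins use ATP to fold or refold clients, while small heat shock proteins hold unfolded proteins without using ATP. Caterpillars feed almost continuously. The midgut secretes digestive enzymes, the fat body stores proteins and lipids for metamorphosis and makes antimicrobial peptides, and the body wall holds muscle beneath a chitin cuticle.

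The study designed RT-qPCR primers for 10 unigenes of this comparison, and all 10 were in the table. Primer pairs for 5 of them are shown because these targets stood among the widest differences or represent chaperones, hormone breakdown, lipid synthesis and the cytoskeleton. They are VSP (a venom serine protease-like enzyme), JHE (juvenile hormone epoxide hydrolase-like), HSP (heat shock protein 68-like), FAR (a fatty acyl-CoA reductase) and FIL (filamin-A). All are written 5′ to 3′.
VSP (c214749_g1_i1), forward: ccgtgatacatccgtcgtttac
VSP (c214749_g1_i1), reverse: ccaactggctgaactccatatt
JHE (c179215_g2_i2), forward: tcgattacggaggccatttc
JHE (c179215_g2_i2), reverse: gttactaggtggcgccttatt
HSP (c180345_g2_i1), forward: cgaggagtgcctaagattgatg
HSP (c180345_g2_i1), reverse: cgacccttgtcgttcttgatta
FAR (c179097_g1_i1), forward: gctccagtagacatggtgaataa
FAR (c179097_g1_i1), reverse: tggagctgacggtatagatagg
FIL (c185519_g3_i1), forward: gaagttggtgatgccaagaaag
FIL (c185519_g3_i1), reverse: gtgtctacgctgaaggtgtt

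Of the 18896 listed unigenes, 8580 were higher and 10316 lower in T40 than in T4, which is 45.4% and 54.6%. Among the 3898 unigenes whose best protein hit had an informative name the balance was the other way, with 60.1% higher and 39.9% lower. With 1 read added to each scaled value, 29% of all listed unigenes were at least 4-fold higher in T40 and 39.4% at least 4-fold lower. The median difference was 5.4-fold among the higher and 6.36-fold among the lower unigenes. The split moved with read depth: 61.3% of the 2137 unigenes that reached 1000 reads in T40 or T4 were higher in T40. The 10 most read listed unigenes held 14.9% of the listed reads in T40 and 48.4% of the listed reads in T4. These are shares of the listed reads, not of the libraries, and a unigene was listed because it differed.

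Named unigenes were sorted by their protein names into 51 lists covering functions and tissues. In 32 lists more members were higher in T40 and in 19 more were lower. Each list's share is read against the 60.1% of all named unigenes, and several stood near it: ubiquitin enzymes (64.1%), lysosome and autophagy (63.3%), neutral lipases (63.6%), ABC transporters (63.6%), caspases and inhibitors of apoptosis (63.6%), antioxidant enzymes (60.9%), digestive carbohydrases (60.9%), trypsins and chymotrypsins (60.5%) and exopeptidases (58.7%). The lists with the most one-sided splits toward T40 concerned protein synthesis, folding, secretion and mitochondria. Those toward T4 concerned muscle, cuticle, immunity, fatty acid synthesis and cytochromes P450.

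**Figure D1:**
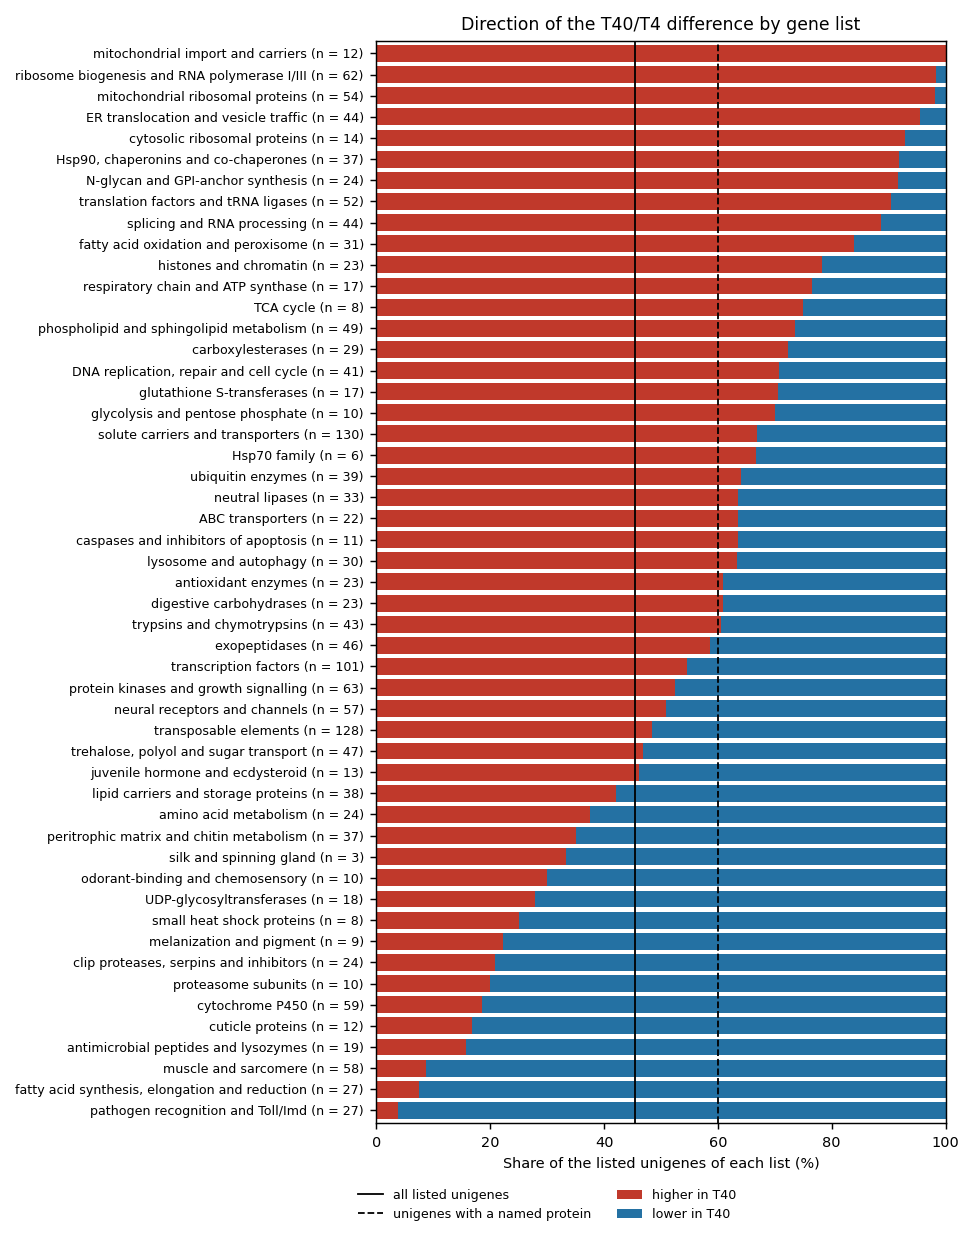
Share of the listed unigenes of each of the 51 lists that were higher in T40 (red) or lower in T40 (blue), in percent of the list, with the number of unigenes in brackets. The solid line is the 45.4% of all listed unigenes that were higher and the dashed line the 60.1% of unigenes with a named protein. Mitochondrial import stands at 100% higher at the top, and pathogen recognition at 3.7% higher at the bottom.

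The chaperone families split by type. Of the 37 unigenes for Hsp90, chaperonins and co-chaperones, 34 were higher in T40 (91.9%), with a median log2 ratio of 1.98, against 1.51 over all named unigenes. The cytosolic chaperonin CCT/TRiC, which folds actin and tubulin, was covered by 9 unigenes for 8 distinct TCP-1 subunits, and all 9 were higher, by 3.14- to 6.94-fold. The eta subunit c183245_g2_i1 had 72.3 RPM in T40 and 10.4 RPM in T4 (6.94-fold, interval 6.24 to 7.75). Its T25 level, 12.8 RPM, was close to that of T4. Heat shock protein 83, the insect Hsp90, was higher in both of its listed unigenes, with 15482 reads in T40 and 4800 in T4 for c172940_g3_i2. In the endoplasmic reticulum, protein disulfide isomerase c174884_g1_i1 had 4423 RPM in T40 and 1693 RPM in T4, a 2.61-fold difference. Endoplasmin c168634_g1_i1, the Hsp90 of that compartment, was 4.86-fold higher, with 44245 reads in T40 and 8601 in T4. The mitochondrial chaperonin pair was also higher: 60 kDa heat shock protein c165538_g1_i1 by 4.73-fold and its 10 kDa partner c109795_g1_i1 by 5.86-fold. One member of the list, T-complex protein 11-like c181049_g1_i2, shares only the name and is not a chaperonin subunit. BAG domain protein Samui c181424_g2_i1, an Hsp70 partner described in the silkworm, was the most read of the 3 lower members, with 47.9 RPM in T40 and 146 RPM in T4.

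The Hsp70 family, with only 6 listed unigenes, had 4 higher and 2 lower members (66.7% higher), near the 60.1% of all named unigenes. Heat shock cognate 70, c174698_g1_i1, which bears the name of the constitutive cytosolic form, had 2435 RPM in T40 and 952 RPM in T4, a 2.56-fold difference (interval 2.53 to 2.59). Both levels lay above the 39.3 RPM of T25. Cognate 5, the mitochondrial form c185889_g2_i1, was 3.85-fold higher, and hypoxia up-regulated protein 1, c50639_g1_i1, an Hsp70-related protein of the endoplasmic reticulum, was 4.98-fold higher. The 2 unigenes with the names of inducible forms were lower. Heat shock protein 68-like c180345_g2_i1 had 2 reads in T40, 1005 in T4 and 2 in T25, a 532-fold lower level in T40 (interval 147 to 4401). Heat shock protein 70, c147153_g1_i1, had 7.17 RPM in T40, 26.4 RPM in T4 and 35.1 RPM in T25.

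Small heat shock proteins were mostly lower in T40, 6 of 8 unigenes, with a median log2 ratio of -2.44. The 2 with the most reads were c166805_g2_i1, a protein lethal(2)essential for life-like, and c157922_g1_i1, named as a small heat shock protein. The first had 202 RPM in T40, 981 RPM in T4 and 4460 RPM in T25. The second had 132 RPM in T40, 797 RPM in T4 and 1344 RPM in T25. In both, T25 stood highest and T40 lowest. The order differed in c173498_g2_i1, a further lethal(2)essential for life-like unigene, which had 22 reads in T40 and 5210 in T4, a 251-fold lower level in T40 (interval 166 to 401), with T25 between them at 39.4 RPM. The exceptions were c156219_g1_i1, 10.5-fold higher in T40, and c206572_g1_i1, 3.37-fold higher on 50 reads in T40 and 14 in T4.

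**Figure D2:**
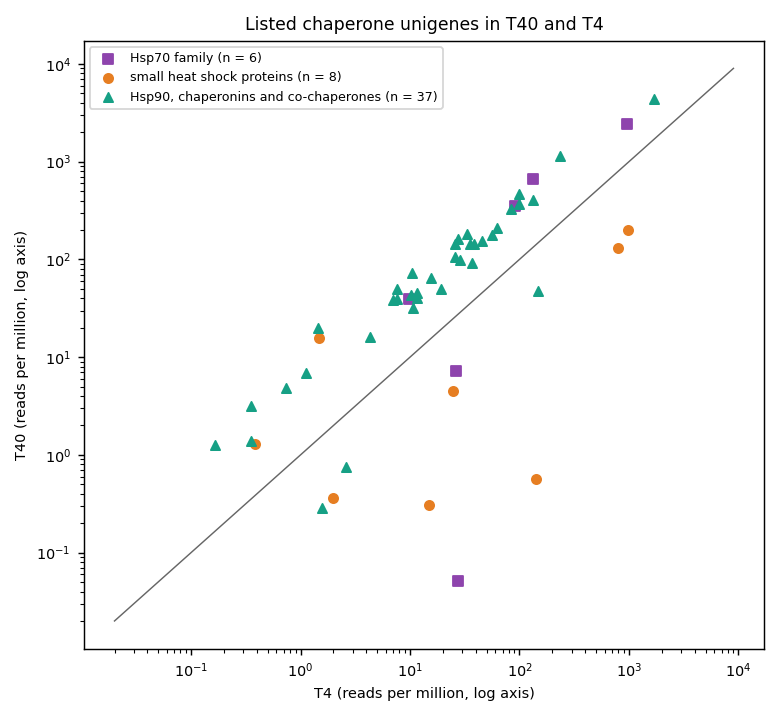
RPM in T40 (vertical, log axis) against RPM in T4 (horizontal, log axis) for each listed chaperone unigene, 1 library per temperature. The line marks equal levels. Of the triangles (Hsp90, chaperonins and co-chaperones), 34 of 37 lie above it, while 6 of the 8 circles (small heat shock proteins) and 2 of the 6 squares (Hsp70 family) lie below, with heat shock protein 68-like lowest.

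Protein breakdown showed no common direction. The proteasome, which degrades ubiquitin-tagged proteins, had 8 of 10 listed subunits lower in T40. Alpha type-1, c182078_g1_i1, had 12.5 RPM in T40, 282 RPM in T4 and 498 RPM in T25, 22.7-fold lower in T40 than in T4. The other lower subunits with over 1000 reads in T4 differed by less: alpha type-7-1, c176801_g7_i1, had 2321 reads in T40 and 5791 in T4. Enzymes that attach or remove ubiquitin were higher in 25 of 39 unigenes (64.1%), close to the share of all named unigenes, while their summed level was 748 RPM in T40 and 1512 RPM in T4. In this list the wide differences were downward, with F-box/LRR-repeat protein 20, c165161_g2_i1, 36.8-fold lower and RING finger protein nhl-1, c187423_g1_i2, 16.1-fold lower. The lysosome and autophagy list (19 of 30 higher) held the vacuolar proton pump and the cathepsins. All 14 listed V-type proton ATPase unigenes, which acidify organelles and energise the midgut membrane in caterpillars, were higher in T40, by 3.03- to 10.5-fold. Subunit B, c176051_g2_i1, had 1448 RPM in T40, 138 RPM in T4 and 158 RPM in T25. Cathepsin B-like proteinase c171119_g1_i1 was 6.83-fold lower in T40, cathepsin O-like c178395_g1_i1 15.0-fold lower, and lysosomal beta-N-acetylglucosaminidase c185248_g1_i2 9.92-fold lower.

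Listed unigenes for the machinery of protein synthesis were higher in T40 almost throughout, and members that are not listed are not covered. Mitochondrial ribosomal proteins had 53 of 54 unigenes higher, including all 32 of the large (39S) subunit, and a median log2 ratio of 1.86. The one lower unigene, 28S ribosomal protein S5, c173729_g1_i1, had 4.53 RPM in T40, 14.2 RPM in T4 and 36.9 RPM in T25. A second unigene with the same best protein hit, c183147_g2_i1, was higher, with 1124 reads in T40 and 106 in T4. Ribosome biogenesis and RNA polymerases I and III had 61 of 62 higher. Nucleolar protein 58, c186373_g1_i1, which guides ribosomal RNA modification, had 75.8 RPM in T40, 3.59 RPM in T4 and 3.07 RPM in T25, 21.1-fold higher in T40 than in T4 (interval 17.7 to 25.3). Nucleolar protein 6, c188609_g1_i1, was 50.2-fold higher, with 9.63 RPM in T40 and 0.192 RPM in T4. The exception was nucleolar complex protein 4 homolog B, c180894_g1_i2, 2.83-fold lower. Translation factors and tRNA ligases had 47 of 52 higher, and all 24 aminoacyl-tRNA ligases, which charge tRNAs with amino acids, were higher by 2.55- to 17.5-fold. A lower member, negative elongation factor A c181488_g1_i2, matched this list by its name only and is not a translation factor. Arginine-tRNA ligase c186119_g2_i2 had 99.1 RPM in T40, 5.67 RPM in T4 and 3.21 RPM in T25. Of the 14 unigenes listed by name as cytosolic ribosomal proteins, 13 were higher. They include 60S ribosomal protein L7/L12 precursor c233026_g1_i1, whose name does not settle that it is cytosolic. The most read was 40S ribosomal protein S2, c123503_g1_i1, with 1321 RPM in T40 and 491 RPM in T4. Splicing and RNA processing followed with 39 of 44 higher, and pre-mRNA-processing-splicing factor 8, c188102_g1_i1, the core of the spliceosome, was 3.12-fold higher.

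Listed unigenes of the secretory route were mostly higher as well. ER translocation and vesicle traffic had 42 of 44 unigenes higher and N-glycan and GPI-anchor synthesis 22 of 24. A lower member of the second list, putative GPI-anchored protein pfl2, c184818_g1_i1, is by its name an anchored protein and not a synthesis enzyme. The translocon channel Sec61 alpha, c165090_g1_i1, had 810 RPM in T40, 97.3 RPM in T4 and 30.98 RPM in T25, an 8.32-fold difference between T40 and T4. All 8 coatomer unigenes, the coat of vesicles that return from the Golgi, were higher by 2.88- to 14.6-fold. Translocon-associated protein gamma, c162794_g1_i1, was 15.6-fold higher. Syntaxin-7, c183608_g1_i2, a fusion protein of endosomes, was the widest of the 2 exceptions in the ER translocation and vesicle traffic list, at 7.32-fold lower. Mitochondrial import and carriers had all 12 unigenes higher, among them the receptor TOM70, c175702_g1_i1, with 198 RPM in T40, 51.9 RPM in T4 and 57.4 RPM in T25.

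**Figure D3:**
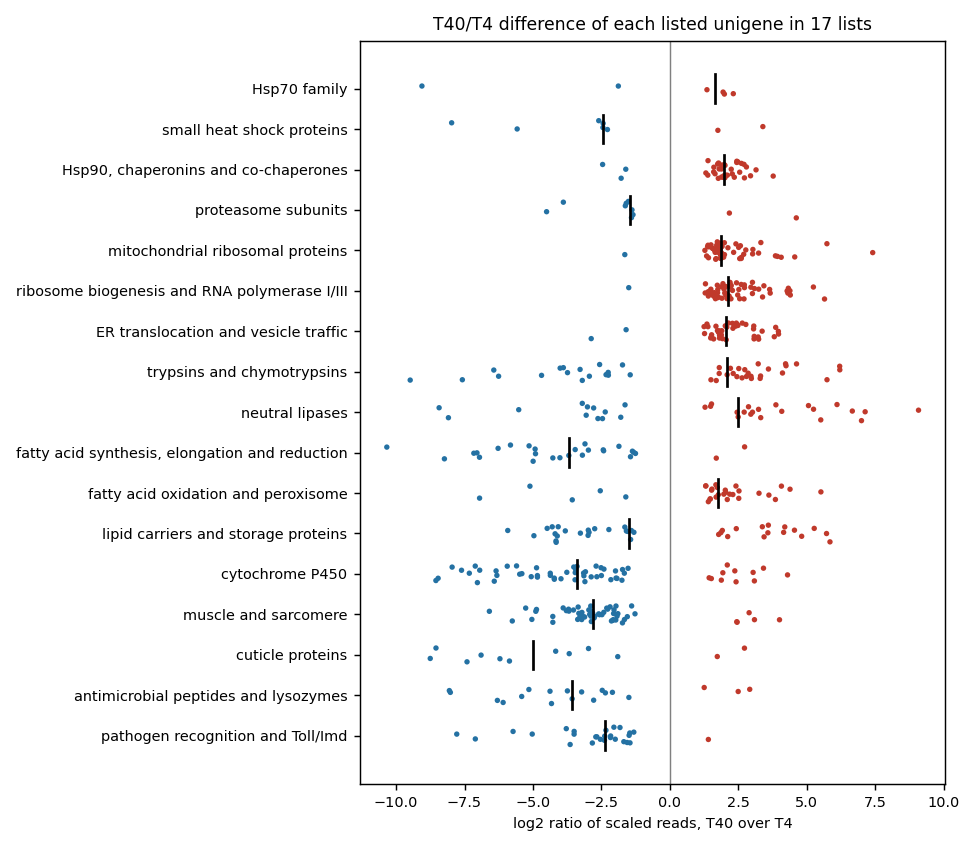
log2 ratio of scaled reads, T40 over T4, of each listed unigene (1 point each) in 17 lists, with red for higher and blue for lower in T40 and a black bar at the median. The empty band around 0 follows from the authors' P value and fold change limit. Mitochondrial ribosomal proteins and ribosome biogenesis sit to the right with medians of 1.86 and 2.13, and fatty acid synthesis and cuticle proteins to the left with medians of -3.69 and -5.01.

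Gene Ontology terms, assigned by the authors, were counted in the same way. Over the 4098 unigenes with a term name, 59.9% were higher in T40. Of the 183 terms with at least 20 listed unigenes, 4 had every member higher: mitochondrial translation (36 of 36), mitochondrial large ribosomal subunit (29 of 29), protein import into nucleus (24 of 24) and maturation of small-subunit ribosomal RNA (21 of 21). At the other end stood proteolysis in cellular protein catabolism (3 of 21 higher), mesoderm development (4 of 25), oxidoreductase activity acting on paired donors (6 of 32), lysosome (4 of 21) and sarcomere organization (7 of 32). Extracellular region, a broad term, had 35 of 116 higher. Pfam domains separated further, against 59.5% higher over the 4105 unigenes with a domain. None of the 11 C-type lectin, 10 ELO elongase or 10 NAD_binding_4 (fatty acyl-CoA reductase type) unigenes was higher in T40, and 1 of 16 with the chitin-binding domain of cuticle proteins was. By contrast all 10 LSM and 23 of 25 RRM_1 unigenes, both RNA-binding domains, were higher, as were 10 of 11 Peptidase_M1 (aminopeptidase) and 10 of 11 Cpn60_TCP1 (chaperonin) unigenes.

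Lists of central carbon metabolism were short. Glycolysis and the pentose phosphate pathway had 7 of 10 higher in T40 (70%), the TCA cycle 6 of 8 (75%), and the respiratory chain and ATP synthase 13 of 17 (76.5%), against 60.1% of all named unigenes. The summed level of the TCA list was 1986 RPM in T40 and 2205 RPM in T4. Hexokinase-2-like c185356_g1_i1, which commits glucose to metabolism, had 408 RPM in T40, 49.6 RPM in T4 and 54.1 RPM in T25. Glucose-6-phosphate 1-dehydrogenase c177205_g1_i1, a source of NADPH, was 5.47-fold lower in T40, with 72.7 RPM in T40, 397 RPM in T4 and 83.6 RPM in T25. ATP-citrate synthase c186208_g3_i2, placed in the TCA list by its name although it makes acetyl-CoA in the cytosol, was 2.87-fold lower, with 576 RPM in T40, 1653 RPM in T4 and 63.4 RPM in T25. For both enzymes T4 stood above T40 and T25. Cytochrome c oxidase subunit III, encoded by the mitochondrial genome, appeared as 2 unigenes of opposite direction: c57829_g1_i1 was 4.91-fold higher and c31818_g1_i1 14.6-fold lower in T40.

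Trehalose is the main blood sugar of insects, and polyols and trehalose are known cryoprotectants. The trehalose, polyol and sugar transport list split into 22 higher and 25 lower. Alpha,alpha-trehalose-phosphate synthase c183580_g1_i1, which makes trehalose, had 107 RPM in T40, 629 RPM in T4 and 996 RPM in T25, 5.88-fold lower in T40 than in T4. Its level in T4 was below that of T25. Unigenes annotated as the trehalose transporter Tret1 made up most of the list, with 13 higher and 23 lower. They ranged from 130-fold higher (c186563_g1_i1, 24.9 RPM in T40 and 0.192 RPM in T4) to 151-fold lower (c187837_g1_i1, 0.129 RPM in T40 and 19.6 RPM in T4). The Tret1 name covers many related sugar transporters, and assembled fragments of close relatives can share reads.

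The summed levels of the digestive enzyme lists were higher in T40, although members of each list went both ways. Trypsins and chymotrypsins had 26 of 43 higher (60.5%), close to the share of all named unigenes, but their summed level was 20197 RPM in T40 and 4802 RPM in T4. The serine protease c153123_g1_i1 alone had 8804 RPM in T40, 1771 RPM in T4 and 1786 RPM in T25, 4.97-fold higher in T40 than in T4 (interval 4.93 to 5.01). Another serine protease, c152799_g1_i1, was 53.4-fold higher with 1264 RPM in T40 and 23.7 RPM in T4. Downward, the elastase-like c177234_g5_i1 had 2 reads in T40 and 1353 in T4, 717-fold lower in T40 (interval 198 to 5923). The exopeptidases had 27 of 46 higher and sums of 22596 RPM in T40 and 5807 RPM in T4. Of 10 membrane alanyl aminopeptidases, brush-border enzymes of the caterpillar midgut, 9 were higher. The most read, c175660_g1_i1, had 6904 RPM in T40, 1876 RPM in T4 and 1085 RPM in T25.

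Carbohydrases had 14 of 23 higher (60.9%), close to the share of all named unigenes, and sums of 6868 RPM in T40 and 533 RPM in T4. Beta-1,3-glucanase c232531_g1_i1, which cuts cell wall glucans, had 3348 RPM in T40, 106 RPM in T4 and 129 RPM in T25, a 31.5-fold difference between T40 and T4. Neutral lipases had 21 of 33 higher, with pancreatic triacylglycerol lipase-like c177662_g1_i1 at 569 RPM in T40, 4.06 RPM in T4 and 48.7 RPM in T25. Here T4 was the low library, 140-fold below T40 and also below T25. Lipase member H-like c178258_g1_i1 was 345-fold lower in T40 on 4 reads, against 1301 in T4. The peritrophic matrix, a chitin and mucin-like lining of the gut, and chitin metabolism had 13 of 37 higher. Chitin synthase c188078_g2_i1 was 3.64-fold higher, while probable chitinase 10, c189255_g1_i1, an enzyme of cuticle turnover, had 1.19 RPM in T40, 383 RPM in T4 and 513 RPM in T25.

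Lipid pathways differed in direction. Of 27 unigenes for fatty acid synthesis, elongation and reduction, 25 were lower in T40 (7.41% higher, median log2 ratio -3.69). All 3 fatty acid synthases, which build palmitate, were lower by 16.2- to 35.3-fold. All 10 elongases and all 9 fatty acyl-CoA reductases, which lengthen fatty acids and turn them into the alcohols of waxes, were lower as well. Fatty acid synthase-like c188412_g1_i1 had 320 reads in T40, 10670 in T4 and 186 in T25. The elongase c37997_g1_i1 had 2 reads in T40 and 2445 in T4, 1295-fold lower in T40 (interval 358 to 10698), and the reductase c22131_g1_i1 had 44 reads in T40 and 5942 in T4. In all 3 of these, the level in T25 was closer to T40 than to T4 on the log scale. The most read member, acyl-CoA Delta(11) desaturase-like c174887_g1_i1, which adds double bonds, had 273 RPM in T40, 3518 RPM in T4 and 1666 RPM in T25. The 2 higher unigenes were a very-long-chain 3-hydroxyacyl-CoA dehydratase, c184352_g2_i1, at 6.63-fold and stearoyl-CoA desaturase 5, c177664_g1_i2, at 3.24-fold.

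Fatty acid oxidation and peroxisome had 26 of 31 unigenes higher in T40. Peroxisomal acyl-coenzyme A oxidase c182306_g3_i2, the first step of oxidation in that organelle, had 924 RPM in T40, 54.8 RPM in T4 and 27.0 RPM in T25, 16.9-fold higher in T40 than in T4. A second unigene annotated as such an oxidase, c187642_g2_i1, was 34.6-fold lower, on 8 reads in T40 and 261 in T4. Phospholipid and sphingolipid metabolism had 36 of 49 higher. Sphingomyelin phosphodiesterase 1-like c178618_g1_i1, which releases ceramide, had 1096 RPM in T40, 262 RPM in T4 and 89.98 RPM in T25.

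Lipid carriers and storage proteins had 16 higher and 22 lower unigenes, but their summed level was 18604 RPM in T40 and 204580 RPM in T4. Storage proteins (hexamerins), which larvae accumulate in blood and fat body, and vitellogenin-like yolk lipoproteins carried this difference. Moderately methionine-rich storage protein c188452_g2_i4 had 7014 RPM in T40, 98995 RPM in T4 and 27200 RPM in T25, 14.1-fold lower in T40 than in T4. Hexamerine c185409_g1_i1 had 3735 RPM in T40, 68250 RPM in T4 and 57313 RPM in T25, 18.3-fold lower. All 5 vitellogenin-like unigenes were lower in T40, by 4.68- to 22.3-fold. On the other side stood intracellular fatty acid carriers: fatty acid-binding protein 1-like c148792_g1_i1 had 2422 RPM in T40, 45.9 RPM in T4 and 8.71 RPM in T25. Acyl-CoA-binding protein c166580_g1_i1 had 6463 RPM in T40, 830 RPM in T4 and 168 RPM in T25. For both carriers T25 was lower than T4.

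**Figure D4:**
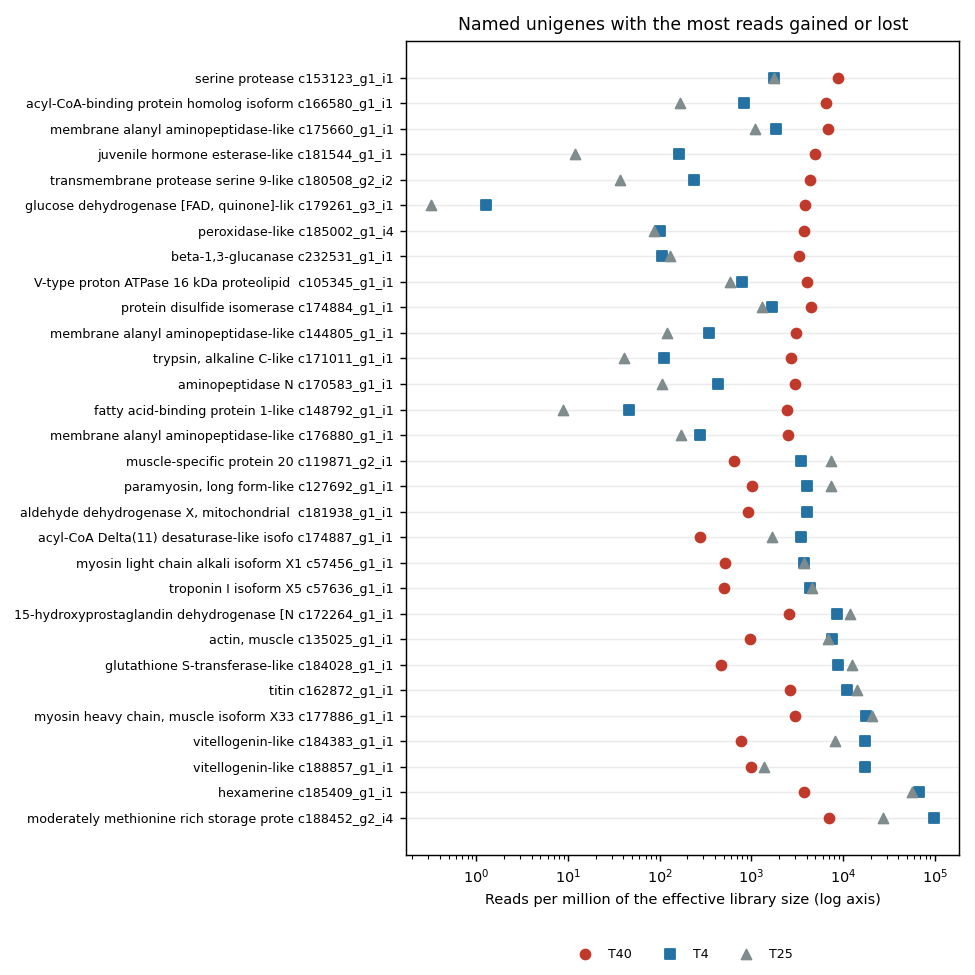
RPM (log axis) in T40 (red circles), T4 (blue squares) and T25 (grey triangles) of the 15 named unigenes with the largest gain in RPM and the 15 with the largest loss, T40 against T4, 1 library per temperature. The upper 15 have T40 rightmost, led by serine protease c153123_g1_i1 at 8804 RPM in T40. The lower 15 have T40 leftmost of the values shown, down to the methionine-rich storage protein at 7014 RPM in T40 and 98995 RPM in T4. Aldehyde dehydrogenase c181938_g1_i1 has no T25 value in the tables used.

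Detoxification families did not share a direction. Cytochromes P450, oxidases of hormones and plant toxins, had 11 higher and 48 lower unigenes (18.6% higher), with a median log2 ratio of -3.39. All 5 CYP9 and all 4 CYP321 unigenes were lower, and 11 of 14 CYP4 unigenes. CYP321A10, c174853_g4_i4, had 51.9 RPM in T40, 1516 RPM in T4 and 148 RPM in T25, 29.2-fold lower in T40. CYP6AE44, c182193_g6_i1, had 17 reads in T40, 5997 in T4 and 65 in T25, 374-fold lower in T40 (interval 233 to 642). In both, the T25 level was nearer to T40 on the log scale. The higher unigenes included 5 of 15 in the CYP6 family and 3 of 14 in the CYP4 family. In the CYP6 family, CYP6B2-like c176116_g1_i1 had 1340 RPM in T40, 125 RPM in T4 and 29.2 RPM in T25.

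UDP-glycosyltransferases, which attach sugars to lipophilic compounds, had 5 of 18 higher. The most changed upward was 2B10-like c180992_g6_i2, with 214 RPM in T40 and 5.54 RPM in T4. The most changed downward was 2B15-like c181642_g4_i1, 2343-fold lower with 4 reads in T40 and 8849 in T4. Further, ugt-58, c177235_g2_i1, was 305-fold lower. Glutathione S-transferases had 12 of 17 higher, yet their sum was 1244 RPM in T40 and 9819 RPM in T4. Most of the T4 sum came from 1 unigene, c184028_g1_i1, with 465 RPM in T40, 8757 RPM in T4 and 12391 RPM in T25. Carboxylesterases had 21 of 29 higher and ABC transporters 14 of 22. Venom carboxylesterase-6-like c184960_g1_i1 was 61.2-fold lower in T40, and ABC transporter G member 1, c196423_g1_i1, which exports cholesterol in mammals, was 14.9-fold higher with 847 RPM in T40 and 56.9 RPM in T4.

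Antioxidant enzymes had 14 of 23 higher (60.9%), close to the share of all named unigenes. Peroxidase-like c178414_g2_i1 had 738 RPM in T40, 0.740 RPM in T4 and 0.143 RPM in T25, 998-fold higher in T40 than in T4 (interval 686 to 1514). A second peroxidase-like unigene, c185002_g1_i4, had 3715 RPM in T40, 101 RPM in T4 and 87.2 RPM in T25. The Cu-Zn superoxide dismutase c123333_g1_i1, which removes superoxide, went down instead, with 8.85 RPM in T40, 201 RPM in T4 and 284 RPM in T25. Glucose dehydrogenase c179261_g3_i1, an FAD enzyme that oxidises glucose, was outside this list and had 3849 RPM in T40, 1.26 RPM in T4 and 0.321 RPM in T25. It was among the 8 unigenes at least 1000-fold higher in T40. Its neighbours in the ranking of named unigenes included a nose resistant to fluoxetine protein 6-like transporter, c179987_g1_i1, with 20492 reads in T40, 7 in T4 and 58 in T25. At the opposite end were 2 aldo-keto reductase AKR2E4-like unigenes, one of which, c147275_g2_i2, had 4 reads in T40, 23049 in T4 and 21231 in T25. This enzyme reduces ecdysteroids in the silkworm. The other, c171320_g1_i1, had 64 reads in T40, 24541 in T4 and 14770 in T25.

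Muscle and sarcomere unigenes were lower in T40 in 53 of 58 cases (8.62% higher, median log2 ratio -2.79). Their summed level was 11681 RPM in T40 and 66253 RPM in T4. Muscle myosin heavy chain c177886_g1_i1, the motor of contraction, had 3028 RPM in T40, 17993 RPM in T4 and 20762 RPM in T25, 5.94-fold lower in T40 than in T4 (interval 5.91 to 5.98). Muscle actin c135025_g1_i1 was 7.78-fold lower, troponin I c57636_g1_i1 8.66-fold lower and titin c162872_g1_i1 4.23-fold lower. For these 4 unigenes the T25 level was close to that of T4. Of the 5 higher unigenes, myosin-IA c187812_g2_i2 and myosin-IB c185370_g3_i1 are unconventional myosins of brush borders rather than muscle motors, and were 8.51- and 7.44-fold higher. The rest were 2 titin-like unigenes and a muscle LIM protein with 17 reads in T40 and 1 in T4. Muscle transcripts were thus lower in sum and gut enzymes higher in sum in T40, and their part in the difference of any other gene was not tested.

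Cuticle proteins had 10 of 12 lower in T40, with a median log2 ratio of -5.01. Larval cuticle protein 1-like c162995_g1_i3 had 39.8 RPM in T40, 2310 RPM in T4 and 444 RPM in T25. Larval cuticle protein LCP-14-like c170679_g1_i1 was 431-fold lower in T40 than in T4, and higher again in T25, with 0.673 RPM in T40, 290 RPM in T4 and 677 RPM in T25. Cuticle protein 6.4-like c184656_g6_i1 was the exception with reads in plenty, 3.32-fold higher. The melanization and pigment list, whose laccase-2 tans the cuticle, had 7 of 9 lower, including laccase-2-like c181717_g2_i1 with 1.37 RPM in T40 and 41.0 RPM in T4. The silk list held 3 unigenes. Silk gland factor 1, c186005_g1_i2, a transcription factor, was 3.71-fold higher, and 2 fibrohexamerin-like unigenes, silk proteins, were lower.

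Listed immune unigenes were lower in T40 with few exceptions. Pathogen recognition and Toll/Imd had 26 of 27 unigenes lower, with a median log2 ratio of -2.38. All 8 Toll-type receptors were lower by 2.95- to 220-fold, all 5 peptidoglycan recognition proteins by 2.74- to 13.8-fold, and all 8 scavenger receptors by 2.49- to 138-fold. Protein toll-like c189027_g2_i1 had 20 reads in T40, 4162 in T4 and 1881 in T25. Hemocytin c189501_g1_i1, a hemocyte clotting protein, had 110 RPM in T40, 573 RPM in T4 and 490 RPM in T25. Antimicrobial peptides and lysozymes had 16 of 19 lower, and each of the 5 cecropins and 2 attacins was among them. Attacin 1, c180045_g1_i1, had 655 reads in T40, 26329 in T4 and 9644 in T25. Lebocin-4-like c174024_g7_i1 had 573 reads in T40, 11247 in T4 and 145 in T25, so that T4 stood out from both others. The members that were higher in T40 were defensin c160379_g1_i1 (122 RPM in T40, 51.1 RPM in T4 and 0.678 RPM in T25), a diapausin precursor, c151810_g1_i1, and a lysozyme-like unigene with 40 reads in T40 and 5 in T4. A second unigene with the same best protein hit as the diapausin, c151342_g1_i1, was lower, with 10 reads in T40 and 189 in T4.

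Clip proteases, serpins and inhibitors, which run and restrain the clotting and melanization cascades, had 19 of 24 lower. Serine protease easter-like c182162_g1_i1 had 1 read in T40, 1689 in T4 and 2431 in T25. The list's most read serpin, antichymotrypsin-1-like c179146_g1_i3, had 573 RPM in T40, 2979 RPM in T4 and 2956 RPM in T25. Antichymotrypsin-2-like c176213_g2_i4 went the other way, with 222 RPM in T40 and 40.2 RPM in T4. So did the highest member of the list, venom serine protease-like c214749_g1_i1 (VSP), with 11394 reads in T40 and 3 in T4.

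Juvenile hormone keeps the larva from metamorphosis, and esterases and epoxide hydrolases degrade it. Of these, 4 of 5 juvenile hormone esterase-like and both epoxide hydrolase-like unigenes were higher in T40. Esterase c181544_g1_i1 had 4887 RPM in T40, 160.5 RPM in T4 and 11.9 RPM in T25, 30.4-fold higher in T40 than in T4 (interval 29.7 to 31.3). The juvenile hormone and ecdysteroid list as a whole had 6 higher and 7 lower unigenes. Ecdysone 20-monooxygenase, which makes the active molting hormone, was lower in both of its unigenes, with 57 reads in T40 and 420 in T4 for c175715_g8_i1. The ecdysone receptor c182468_g1_i4 had 4109 reads in T40, 10930 in T4 and 8504 in T25. Its partner USP, c188718_g3_i2, from the list of transcription factors, was 3.7-fold lower with 85.7 RPM in T40, 317 RPM in T4 and 329 RPM in T25. Ecdysone-induced protein 74EF, c189602_g2_i2, an early response factor, was lower too, with 9587 reads in T40 and 33949 in T4.

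Odorant-binding and chemosensory unigenes had 7 of 10 lower, among them odorant binding protein 25, c168383_g1_i1, with 4 reads in T40, 4741 in T4 and 604 in T25. Chemosensory protein CSP c85656_g1_i1 had 3.26 RPM in T40, 410 RPM in T4 and 142 RPM in T25. Neural receptors and channels were divided evenly, 29 higher and 28 lower. Their most read member, synaptic vesicle glycoprotein 2B-like c172036_g1_i1, had 556 RPM in T40 and 19.8 RPM in T4, although this name also covers other transporters of the same superfamily. Both listed unigenes for the beta subunit of the inhibitory GABA receptor were lower, by 81.2- and 637-fold. Transcription factors (55 of 101 higher) and kinases and growth signalling (33 of 63 higher) showed no common direction either. Among kinase-list members the notch homolog protein 4, c183303_g1_i1, was 115-fold lower with 1.79 RPM in T40 and 205 RPM in T4.

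Histones and chromatin had 18 of 23 higher, and DNA replication, repair and cell cycle 29 of 41. Cyclin-E c185658_g6_i7, which drives entry into S phase, had 28.4 RPM in T40, 3.32 RPM in T4 and 1.64 RPM in T25. Replication factor C subunit 5, c169874_g1_i2, was 7.70-fold higher. Origin recognition complex subunit 3, c175271_g1_i5, was 32.5-fold lower. Caspases and inhibitors of apoptosis had 7 of 11 higher (63.6%), near the share of all named unigenes. All 3 unigenes named as caspases were lower. The executioner caspase-1, c185972_g7_i1, had 25.3 RPM in T40, 86.2 RPM in T4 and 103 RPM in T25, caspase-1-B-like c185862_g1_i1 was 12.6-fold lower and caspase-2, c182740_g1_i2, 2.57-fold lower. The inhibitor baculoviral IAP repeat-containing protein 7, c186775_g3_i7, had 54.6 RPM in T40 and 9.16 RPM in T4.

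Solute carriers and transporters formed the largest list, with 87 of 130 higher in T40 (66.9%), against 60.1% of all named unigenes. Putative inorganic phosphate cotransporter c174059_g1_i2 had 40.8 RPM in T40 and 0.493 RPM in T4, 82.7-fold higher in T40. Amino acid metabolism had 9 of 24 higher. A lower member, glycine, alanine and asparagine-rich protein c184419_g2_i3, matched this list by its name only. Asparagine synthetase c189653_g1_i1, a marker of the amino acid response in mammals, had 228 RPM in T40, 38.02 RPM in T4 and 8.46 RPM in T25. The 2 lowest members of that list are both enzymes of tyrosine breakdown: 4-hydroxyphenylpyruvate dioxygenase-like c183361_g3_i1 was 340-fold lower, and tyrosine aminotransferase-like c180183_g1_i2 had 1 read in T40, 1041 in T4 and 1602 in T25. Transposable elements, 128 unigenes, split into 62 higher and 66 lower. A Copia polyprotein, c185976_g1_i1, was far apart from the rest, with 18899 reads in T40, 20 in T4 and 99 in T25.

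The 10 unigenes chosen by the study for RT-qPCR spanned the extremes. The choice was made from these libraries, so their differences are a description. VSP, c214749_g1_i1, had 11394 reads in T40, 3 in T4 and 107 in T25, 3586-fold higher in T40 than in T4 (interval 1227 to 17390). KDR, 3-ketodihydrosphingosine reductase c170666_g1_i1 of sphingolipid synthesis, had 2535 reads in T40, 8 in T4 and 209 in T25. PHA, c170786_g1_i1, named phospholipase A1-like in the primer list and pancreatic triacylglycerol lipase-like by its best protein hit, had 3387 reads in T40, 25 in T4 and 562 in T25. In these 3 and in the next target, SID, T25 lay between T40 and T4. SID, the SID1 transmembrane family member 2-like c180292_g9_i4, of a family that includes the double-stranded RNA channel of nematodes, had 602 reads in T40, 4 in T4 and 37 in T25. JHE, c179215_g2_i2, had 9298 reads in T40, 121 in T4 and 12 in T25, so T25 was the lowest.

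The 5 lower targets were near 0 in T40 except filamin. Venom allergen 5-like c166591_g1_i1 (VAL) had 1 read in T40, 2341 in T4 and 904 in T25, 2480-fold lower in T40 than in T4 with a wide interval, 445 to 97980. Proclotting enzyme-like c182964_g5_i1 (PCE), a clip protease, had 2 reads in T40, 2099 in T4 and 1529 in T25. FAR, c179097_g1_i1, had 3 reads in T40, 853 in T4 and 7 in T25. Like HSP, it was close to 0 in both T40 and T25. FIL, c185519_g3_i1, an actin cross-linker, had 132 reads in T40, 12027 in T4 and 3993 in T25, a 96.5-fold lower level in T40 (interval 81.3 to 116).

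**Figure D5:**
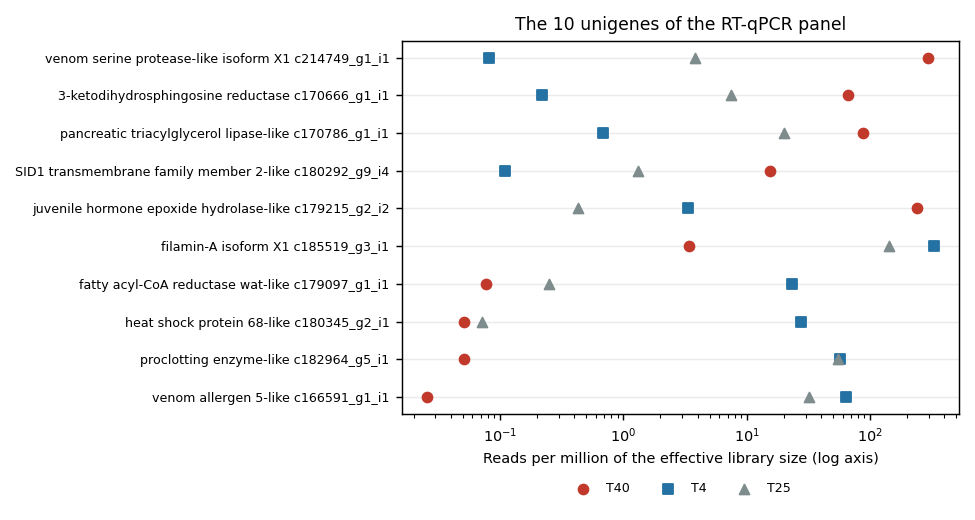
RPM (log axis) in T40 (red circles), T4 (blue squares) and T25 (grey triangles) of the 10 unigenes with RT-qPCR primers, from the sequencing libraries, 1 per temperature. VSP leads the upper 5 with 295 RPM in T40 and 0.0822 RPM in T4. In the lower 5, T40 is leftmost, and HSP and FAR have T25 next to T40.

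Most of the table had no protein hit. Of the 18896 unigenes, 13408 lacked a hit in the NR protein database, and 40.8% of these were higher in T40, while of the 5488 with a hit 56.6% were. Relative to the median unigene, the ratio of reads to FPKM, a measure of length, was 0.615 for unannotated unigenes higher in T40 and 0.95 for those lower. Spodoptera litura supplied 4102 of the hits (74.8%), with 2385 higher and 1717 lower, and S. frugiperda itself 87. The same protein could be hit by several unigenes, and 103 of 419 such proteins had unigenes in both directions. For 1 maltase A1-like protein, c179745_g1_i1 had 20687 reads in T40 and 1026 in T4, while c187954_g1_i6 had 27 reads in T40 and 555 in T4. Among assembly components, groups of contigs with shared sequence, 875 of 2644 with several listed unigenes were mixed. Reads shared between isoforms or close paralogs could not be reassigned here, so the direction of a single unigene is less certain where a family has many members.

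A T25 value was present for 14533 of the unigenes, those also listed in a table against T25. Of the 6366 unigenes higher in T40 with such a value, T25 lay below both libraries in 2999, between them in 2607 and above both in 760. Of the 8167 lower in T40, T25 lay above both in 3370, between them in 3655 and below both in 1142. These positions depend on which tables list a unigene, since 9103 had their T25 value from the table against T40 alone and 3416 from the table against T4 alone. For those, whether T25 was nearer to T40 or to T4 is fixed almost wholly by that choice, so it was not compared between lists. Of the 2014 unigenes listed in both tables against T25, T25 lay above both libraries in 688, between them in 545 and below both in 781.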

How the data were processed

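Whole-body RNA of Spodoptera frugiperda larvae was sequenced as 1 library of 5 pooled larvae per temperature. The authors trimmed reads (Trimmomatic 0.38), checked them (FastQC 0.11.7), assembled the merged reads with Trinity, clustered contigs into unigenes, aligned each library (Bowtie 1.1.2) and estimated abundance with RSEM. The submitters' processing notes also name DESeq2. The deposited tables give, per unigene, the estimated count of reads, FPKM calculated by the authors, and the authors' log2 of 1 plus normalised RPM. Effective library sizes were solved from the deposited log2 values and the estimated counts, and RPM and folds were computed from them. FPKM served only for alternatives and relative length. The columns of fold change, mean, logCPM and P values hold the authors' own comparison and were not used. A single line in each of 2 of the series' files was not analysed here.

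Intervals are exact binomial (Clopper-Pearson, 95%) for the split of reads between libraries. They cover counting error only, since reads are not independent molecules. On simulated T40/T4 reads of 18896 unigenes the interval covered the true ratio in 96.3% of unchanged unigenes with counting error alone and in 59.8% with an added variation of 0.3 (coefficient of variation). The simulation applied no P value or fold change limit, so this coverage does not carry over to unigenes listed because they differed. Listed reads summed to 17164826 in T40 and 21850321 in T4.

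Lists were built from name patterns on the best NR hit, and false matches found on reading annotation text were corrected. Some false matches remained, such as negative elongation factor A among the translation factors, and the counts of each list include them. The members and lists were chosen with earlier results of these data known. Named unigenes were the 10 RT-qPCR targets, the 15 highest and 15 lowest by ratio (1 read added, 100 reads or more in T40 or T4), the 15 largest gains and 15 largest losses in RPM, and up to 3 highest and 3 lowest of each list that reached 50 reads in T40 or T4, plus its most read unigene. Other unigenes named in the text were chosen after their values were seen. GO terms with at least 20 and Pfam domains with at least 10 listed unigenes were counted. Alternatives were other scalings (listed reads, TMM by edgeR 4.0.16, FPKM), read minimums, fold minimums, and 1 unigene per gene, component or protein. Python 3.11.15, pandas 2.3.3, scipy 1.17.1 and R 4.3.3 were used.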

Additional observations from a re-analysis of the deposited data

How the results depend on the processing

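No paired analysis was possible because each temperature had 1 library. The share of listed unigenes higher in T40, 45.4%, could not move under another scaling, since the smallest listed fold is 2.35 and scaling by listed reads, FPKM and TMM shifted the median log2 ratio by 0.43, 0.21 and -0.02. Nor could it move with at least 10 reads or 1 unigene per assembly gene, which keep all 18896 unigenes. It was 45.2% with 1 unigene per annotated protein and with more than 3 reads in the lower library, 49.9% with at least 100 reads, 42.4% at 4-fold or more and 37.8% at 8-fold or more (both with 1 read added), 47.1% with 1 unigene per assembly component, and 56.6% among unigenes with an NR hit, where the majority was higher. The component and lower-library settings were chosen after seeing the data. Of the 51 lists, 32 had more higher than lower members. The number was 29 at 4-fold or more, 20 at 8-fold or more and 33 per component, and 32 under the other settings.

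Shares of some lists crossed 50%. At 8-fold or more, again with 1 read added, this held for the Hsp70 family (0% higher, 1 unigene), ubiquitin enzymes (0%, and 41.2% at 4-fold), ABC transporters (33.3%), juvenile hormone and ecdysteroid (66.7%), neural receptors (46.7%), transcription factors (42.3%), DNA replication (37.5%) and kinases (23.1%). Trehalose and sugar transport became 55.3% with at least 100 reads, 53.7% with 1 unigene per protein and 51.2% with more than 3 reads in the lower library. Neural receptors became 47.6% with at least 100 reads and 48% with more than 3 in the lower library, and transposable elements 51.5% per component. Fewer unigenes enter each of these. Of the 327 named unigenes, 225 differed by 8-fold or more as ratios of RPM, 222 with 1 read added and 206 with a pseudocount of 10. The 10 unigenes with most FPKM, in place of most reads, held 10.7% of listed reads in T40 and 40.2% in T4. Depth limited the 860 unigenes at 1 read in T40 and the 903 at 1 read in T4.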
